A study of Homo sapiens with 2 samples.

Results

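The 10 genes described here belong to the Notch pathway: the receptors NOTCH1, NOTCH2 and NOTCH3, the ligands JAG1, JAG2 and DLL1, the target genes HES1, HEY1 and NRARP, and ATOH1, a gene that Notch signalling holds down in the gut. They were picked by gene name, with earlier results of these data known, and 16 of the 45033 probe sets on the array read them, out of 23619 genes in all. Total RNA came from HCT15, a human colorectal cancer cell line, after stable transduction with a small hairpin RNA against LYAR (the knockdown array) or with a scramble hairpin (the control array). LYAR encodes a nucleolar zinc-finger protein. Both groups carried a lentiviral vector and were sorted on its GFP marker, and each group was hybridised to 1 single-colour NimbleGen array. Which of the LYAR hairpins the cells carried is not stated in words in the labels, and the 1 scramble sample is the only control. All differences therefore compare 2 arrays, have no replicate check and carry no test.

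Notch receptors are membrane proteins that are activated by ligands of the Jagged and Delta-like families on a neighbouring cell. Binding leads to cleavage by an ADAM protease and then by gamma-secretase, which frees the intracellular part of the receptor to enter the nucleus and turn the DNA-binding protein RBPJ from a repressor into an activator. In the intestinal epithelium the pathway keeps progenitors proliferating and steers them to the absorptive fate, in part because HES1 represses ATOH1, the transcription factor that starts the secretory programme of goblet and enteroendocrine cells.

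The stretches upstream of 4 target genes are shown because they are where RBPJ could act on genes whose values lay on either side of 0. HES1 was lower on the knockdown array and HES4 was nearly level. NRARP was higher by 0.31, less than 0.658, the pooled SD between probe sets of one gene among dim genes. HEYL was higher too, but it passed the intensity filter described below on the knockdown array alone, which fixed its sign. A link between matches and these values was not tested. HES4 and HEYL are not among the 10 genes and come from the wider pathway list. The windows are the 250 bases before the gene start in RefSeq, build GRCh38.p14, at chr3:194135898-194136147 on the + strand for HES1, chr9:137302272-137302521 on the - strand for NRARP, chr1:1000098-1000347 on the - strand for HES4 and chr1:39639644-39639893 on the - strand for HEYL. Each is written 5′ to 3′ on the strand of its gene, and capitals mark the RBPJ core letters TGGGAA on either strand.
HES1: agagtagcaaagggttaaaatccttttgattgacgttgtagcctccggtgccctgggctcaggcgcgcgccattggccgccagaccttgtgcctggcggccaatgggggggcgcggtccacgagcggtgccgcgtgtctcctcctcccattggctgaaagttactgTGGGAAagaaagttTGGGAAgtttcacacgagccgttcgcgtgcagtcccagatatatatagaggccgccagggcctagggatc
NRARP: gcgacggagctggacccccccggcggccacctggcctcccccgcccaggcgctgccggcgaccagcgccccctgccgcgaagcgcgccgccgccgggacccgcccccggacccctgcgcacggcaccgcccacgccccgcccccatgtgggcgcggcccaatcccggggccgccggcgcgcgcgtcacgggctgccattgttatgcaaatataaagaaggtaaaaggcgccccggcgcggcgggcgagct
HES4: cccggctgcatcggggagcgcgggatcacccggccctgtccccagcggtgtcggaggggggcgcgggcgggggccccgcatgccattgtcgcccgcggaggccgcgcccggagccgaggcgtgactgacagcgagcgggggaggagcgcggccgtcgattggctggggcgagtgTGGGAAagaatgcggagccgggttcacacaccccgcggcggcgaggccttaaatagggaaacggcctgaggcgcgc
HEYL: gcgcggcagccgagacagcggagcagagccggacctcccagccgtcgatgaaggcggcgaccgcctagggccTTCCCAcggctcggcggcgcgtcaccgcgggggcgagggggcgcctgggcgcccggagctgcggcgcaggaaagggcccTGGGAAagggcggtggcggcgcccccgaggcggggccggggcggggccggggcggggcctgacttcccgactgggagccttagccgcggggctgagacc

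The HES1 window held 2 matches to the RBPJ core, starting 84 and 70 bases before the gene start, both on the gene's own strand and not overlapping. It also held 3 matches to CACNAG, the N-box letters that HES proteins bind, none of which overlapped an RBPJ match. HES4 had 1 RBPJ match, starting 76 bases before its start, and HEYL had 2, at 178 and 99 bases and on opposite strands. The NRARP window held neither set of letters. Across all 35116 RefSeq windows of this length, searched on both strands and with more than 1 window for some genes, 20.8% held TGGGAA and 32.04% held CACNAG, and 2.896% held TGGGAA at 2 or more places. Windows were found for 8 of the 10 genes, HEY1 and DLL1 being the others, and of these HES1 was the 1 with an RBPJ match while HES1, NOTCH3 and ATOH1 had an N-box match. A match is a run of letters and is not by itself a binding site.

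**Figure D1:**
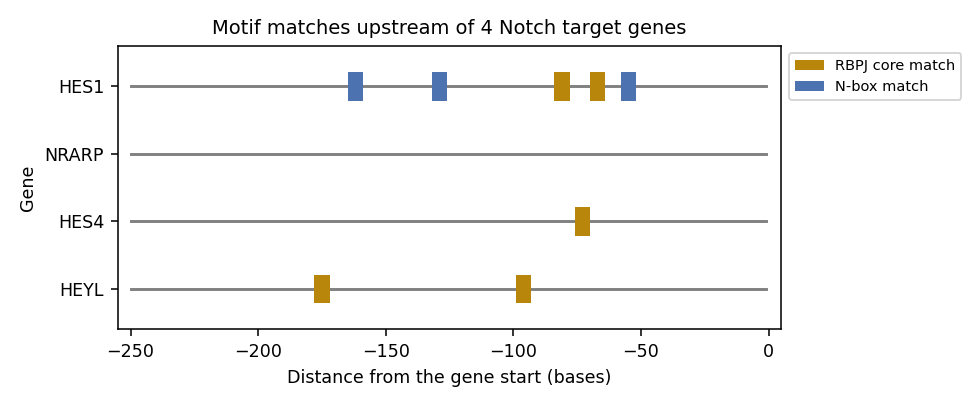
Matches to the RBPJ core (gold) and the N-box (blue) in the 250 bases upstream of HES1, NRARP, HES4 and HEYL, drawn to scale against distance from the gene start in bases. HES1 carries 2 RBPJ matches and 3 N-box matches, HES4 carries 1 RBPJ match, HEYL carries 2 and NRARP carries none of either.

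None of the Notch genes with enough signal to count reached 2-fold. Among the 8 of the 10 that passed the intensity filter, 0 were higher by 2-fold or more, beside 5.06% of all 12682 passing genes, and 0 were lower by as much, beside 3.56%. A gene passed where the higher of its 2 intensities reached 105.9, the median over all genes. The values of the 8 ran from -0.76 to 0.46 on the log2 scale, always as LYAR shRNA minus scramble shRNA, with 4 above 0 and 4 below. Their median was -0.07, beside 0.05 for all passing genes. HEY1 and ATOH1 did not pass. DLL1 passed on the control array alone, so its sign was fixed once it passed. Over all 10 genes the median was 0.07, beside 0.02 for all 23619 genes.

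The targeted gene was lower where its hairpin was present. LYAR read 1036 on the knockdown array against 1925 on the control array, from 1 probe set. The difference of -0.89, or 53.8% of the control intensity, did not reach 2-fold. A value was treated as near the random control probes where it lay below 2 times their intensity, that is below 60.7 on the knockdown array and below 65.4 on the control array. Of 12 markers of colon epithelium, 9 passed the filter, with differences from -0.10 to 0.52, KRT8 and KRT19 among the brightest, while KRT20 had no probe set above the random probes on either array. Markers of blood cells were brighter on the control array. The summed intensity of 8 B-cell and plasma-cell markers was 356.9 on the knockdown array and 1896 on the control array, with IGKC and IGHM the brightest, and MS4A1 and JCHAIN had no probe set above the random probes on either array. All 3 of these markers that passed were lower by 2-fold or more, and all 3 passed on the control array alone, which fixed their sign. For 6 red-cell markers the sums were 369.6 and 1604, with HBA1 and HBA2 among the brightest and ALAS2 not above the random probes on either array. All 4 that passed were lower by 2-fold or more, 3 of them having passed on the control array alone. For 7 T-cell and myeloid markers the sums were 534.2 and 1120. Of the 3 that passed, CD68 and CD3E were lower by 2-fold or more, CD3E having passed on the control array alone, and CD14 was at -0.67, while CD2 and LYZ were not above the random probes on either array. A probe set above the random probes on at least 1 array was found for 1 of 5 endothelial markers and 4 of 6 fibroblast markers, COL1A1 being the 1 of these lists that passed. Of 6 markers of embryonic kidney or neuronal cells, the kind used to package the virus, GATA3 passed, at -0.15, and NEFL had 1 probe set at 191.4 on the knockdown array against 14.2, near the random probes, while its other 2 were near the random probes on that array. The part of any of these in the Notch values was not tested. In whole-cell RNA, fewer cells with a transcript and less of it per cell cannot be told apart.

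NOTCH3 was the receptor with the lowest difference. It is one of the 4 mammalian Notch receptors and is best known from vascular smooth muscle, though carcinoma lines also express it. Its single probe set covers chromosome 19, 15131443 to 15172792 in hg18, and read 673 on the knockdown array and 1084 on the control array. The difference was -0.69, or 62.1% of the control intensity. It is larger than 0.404, the SD of differences between probe sets that share a gene, pooled over passing genes of the middle tertile of intensity, and larger than 0.514, the SD of all gene differences there. Neither is a spread between replicates. In that tertile, 16.4% of genes had a larger difference in one direction or the other.

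NOTCH1, the receptor with the best known role in intestinal progenitors beside NOTCH2, was close to level. Its probe set on chromosome 9 from 138508716 to 138560059 in hg18 gave 219.5 on the knockdown array and 255.7 on the control array. The difference of -0.22 is smaller than the pooled SD of 0.658 between probe sets in the dimmest tertile of passing genes, to which NOTCH1 belongs. In that tertile, 76.2% of genes had a larger difference in one direction or the other, beside 64.0% of all passing genes.

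The probe sets of NOTCH2 went in both directions. The brightest of the 3, annotated from 120255698 to 120413799 on chromosome 1 in hg18, gave 951 on the knockdown array and 707 on the control array, a difference of 0.43. A dimmer one gave 174.6 against 86.4, a difference of 1.01. The last gave 33.4, near the random probes, against 75.3, which puts it at least 1.24-fold lower on the knockdown array. The mean over the 3 was 0.09 with an SD of 1.13 between them, so the gene had no settled direction. NOTCH2 is also uncertain because NOTCH2NLA, a partial copy of its first exons on the same chromosome, has near-identical sequence. The 3 probe sets of NOTCH2NLA gave differences of 0.65, -0.02 and -0.01, and the files do not place the probes within their transcripts.

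**Figure D2:**
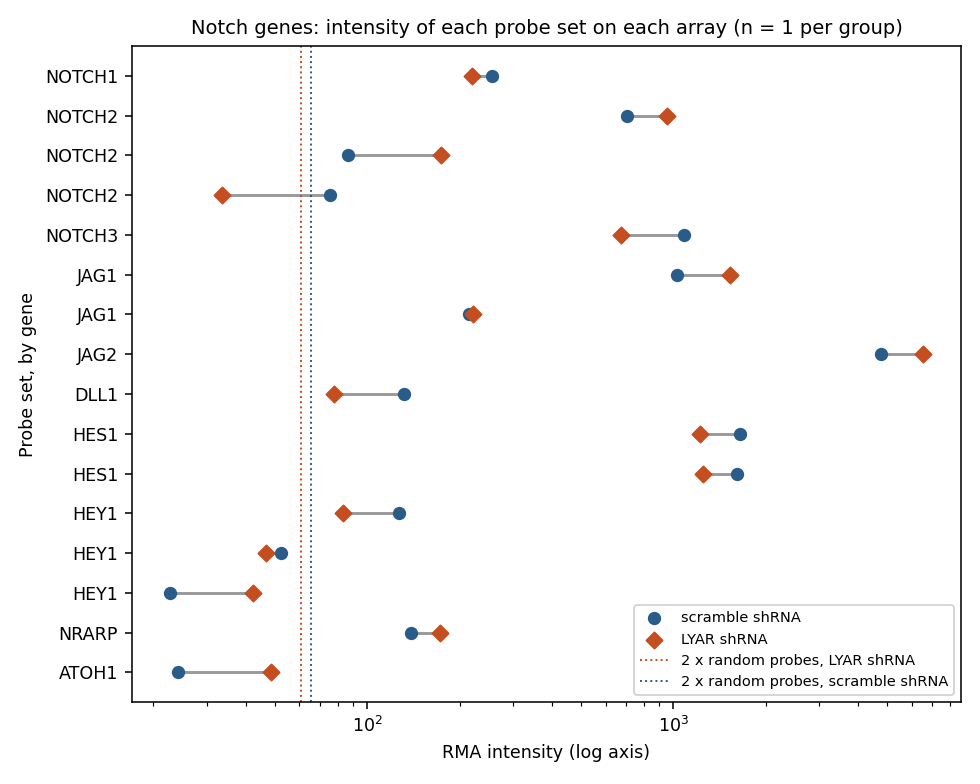
Intensity of each of the 16 probe sets of the 10 genes on the control array (blue circles) and the knockdown array (orange diamonds), on a log axis, with dotted lines at 2 times the random control probes of each array. The single NOTCH3 and DLL1 probe sets and both HES1 probe sets sit lower on the knockdown array, JAG2 and both JAG1 probe sets sit higher, and ATOH1 and 2 of 3 HEY1 probe sets lie below the dotted lines on both arrays. Intensities of different probe sets depend on their probes and give no order between genes.

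The Jagged ligands lay above 0 and the Delta-like ligand DLL1 below. The sign of DLL1 was fixed by its passing on the control array alone, so no contrast between the ligand families is drawn. JAG2, a ligand that is often expressed in epithelial tumours, read 6557 on the knockdown array and 4767 on the control array from 1 probe set on chromosome 14, 104679120 to 104706206 in hg18. The difference was 0.46, or 137.5% of the control intensity. This exceeds the pooled SD between probe sets in the brightest tertile, 0.230, and the SD of all gene differences in that tertile, 0.395, and 20.3% of the genes in that tertile had a larger difference in one direction or the other.

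JAG1, which in the gut is known both as a Notch ligand and as a gene induced by Wnt signalling, also stood above 0. Of 2 probe sets, the brighter, on chromosome 20 from 10566630 to 10602597 in hg18, gave 1527 on the knockdown array and 1030 on the control array, a difference of 0.57. The dimmer one gave 221.8 and 214.8, a difference of 0.05. Their mean, 0.31, is below the middle-tertile SD of 0.404, so the higher value for JAG1 rests on 1 probe set.

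DLL1, a Delta-like ligand made by secretory progenitors and needed beside DLL4 for intestinal stem cells in the mouse, had the lowest difference of the 10. Its probe set on chromosome 6, from 170433225 to 170441398 in hg18, read 77.6 on the knockdown array and 131.4 on the control array, and both were above the random probes. The difference was -0.76. It is larger than the pooled SD of 0.658 between probe sets in the dimmest tertile of passing genes. It is smaller than 0.813, the SD of all gene differences there. In that tertile, 30.6% of genes had a larger difference in one direction or the other, so a value of this size was common among dim genes.

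HES1, the bHLH repressor that carries much of the Notch output in the gut, gave nearly the same value in both of its probe sets. One probe set read 1219 on the knockdown array and 1649 on the control array, and the other read 1247 and 1617, both within 195336627 to 195339092 of chromosome 3 in hg18. Their differences were -0.44 and -0.38, with a mean of -0.41 and an SD of 0.0426 between them, or 75.5% of the control intensity. The probe sets cover the same short gene on the same arrays, so their closeness is no replicate. The mean is larger than the brightest-tertile pooled SD of 0.230 and close to 0.395, the SD of all differences in that tertile, and 25.8% of the genes there differed by more.

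NRARP, a small ankyrin-repeat protein that is induced by Notch and feeds back on the RBPJ complex, lay the other way. Listed in the files under its older symbol MGC61598 and matched through its gene ID, it read 172.1 on the knockdown array and 138.7 on the control array, on chromosome 9 from 139314754 to 139316524 in hg18. The difference of 0.31 is under the dimmest-tertile SD of 0.658. HES1 and NRARP, both direct targets with values on both arrays, thus had differences of opposite sign, that of NRARP within the spread between probe sets and that of HES1 outside it.

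HEY1, a target that is prominent in endothelium and mesenchyme, was hardly measured. It lies in hg18 on chromosome 8 from 80838799 to 80842560, and 2 of 3 probe sets were near the random probes on both arrays. The other one read 83.0 on the knockdown array and 126.7 on the control array, a difference of -0.61. The mean over the 3, at 0.04, mixes this with values that have no known order. ATOH1, on chromosome 4 from 94969100 to 94970165 in hg18, read 48.3 and 24.0, below 2 times the random probes on both arrays, so its nominal difference of 1.01 has no known size and gives no fold. No level of the secretory master gene could be compared at this signal.

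**Figure D3:**
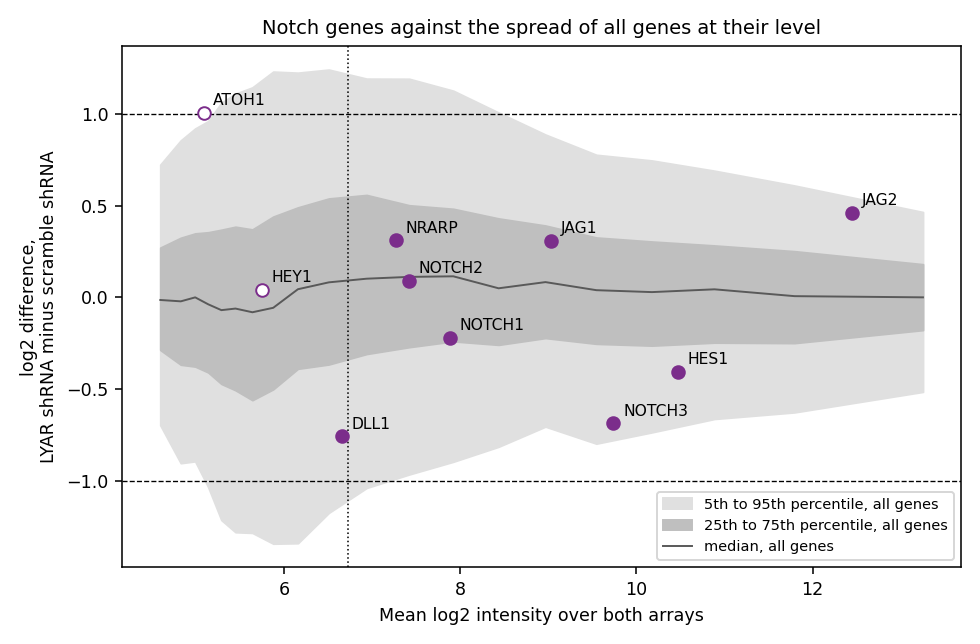
Mean log2 intensity over both arrays (x axis) against the log2 difference, LYAR shRNA minus scramble shRNA (y axis), for the 10 genes, filled where the gene passed the filter and open where it did not. Grey bands give the 5th to 95th and the 25th to 75th percentiles of all 23619 genes in 20 bins of intensity, the dashed lines mark 2-fold and the dotted line the filter. JAG2 stands near the upper edge of the outer band and NOTCH3 near its lower edge, and NRARP, JAG1, NOTCH2, NOTCH1 and HEY1 lie in or at the inner band.

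Beyond the 10 genes, a list of 80 others of the pathway was examined, of which 78 were matched on the array and 57 passed the filter. Of these 57, 4 were higher by 2-fold or more (7.02%, beside 5.06% of all passing genes) and 0 were lower by as much (beside 3.56%). The median over the 78 was 0.14, beside 0.02 for all genes, and 35 of the 57 were above 0. The sign of 14 of the 57 was fixed because they passed on 1 array alone. Among these 14 were ADAM17, POGLUT1, MFNG, NOTCH4, FBXW7, DTX3L and MAML3. Of the other 43, 24 were above 0 (55.8%, beside 54.3% of all genes that passed on both arrays). Counts of signs by role below are over genes that passed on both arrays. All 4 genes past 2-fold were in the dimmest tertile, where 10.6% of genes were at least 2-fold higher, and all 4 passed on the knockdown array alone, so that passing fixed their sign. They were ADAM10, EP300, HES2 and HEYL, each with 1 probe set.

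For the cleavage of the receptors all 8 genes passed, and of the 6 that passed on both arrays 4 were above 0 and 2 below. ADAM10, the protease that makes the first ligand-dependent cut, read 125.6 on the knockdown array and 58.9, near the random probes, on the control array, so it was at least 1.92-fold higher. Its relative ADAM17 was at least 1.52-fold higher, 1 of its 2 probe sets being near the random probes on the control array. Gamma-secretase subunits lay on both sides. APH1A, a scaffold subunit, was at -0.38 over 4 probe sets that ran from -0.43 to -0.28. PSENEN, the small subunit that completes the complex, was at -0.35, a mean of probe sets at -0.87, -0.12 and -0.06. PSEN2, a catalytic subunit named after its value was seen, was at 0.47.

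Genes that glycosylate or mature the receptors also spread around 0. POFUT1, which adds the O-fucose that ligand binding needs, was at 0.61, with probe sets at 0.47 and 0.76. POGLUT1, an O-glucosyltransferase, gave -0.19, 0.39 and 1.23 in probe sets with both values above the random probes, and its other probe set was near the random probes on the control array. MFNG, one of the Fringe enzymes that extend O-fucose and tune ligand choice, was at -0.75 with 77.5 against 130.6, and FURIN, the convertase that cuts the receptor precursor, was at -0.44. LFNG, another Fringe enzyme, did not pass the filter. It read 85.0 against 35.2, near the random probes, and was at least 1.30-fold higher on the knockdown array (named after its value was seen). Of the other receptor and ligands, NOTCH4 gave 0.72 and 0.92 in the probe sets with both values above the random probes, while its other probe set was near the random probes on the knockdown array and at least 1.14-fold lower there, and DLK2, a non-canonical ligand, at -0.69, while DLL3, DLL4 and DLK1 did not pass.

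For ligand endocytosis, by which the ligand-bearing cell pulls on the receptor, 3 of 4 measured genes passed. Of these 3, 0 reached 2-fold, beside 5.06% of all passing genes at least 2-fold higher and 3.56% lower. A count of 0 among 3 genes says little at those shares. The ubiquitin ligase genes MIB2 and NEURL1 were at 0.35 and 0.14 and the epsin gene EPN1 at -0.45. For trafficking and turnover of the receptors, 6 of 10 passed, 4 of them on both arrays, with 1 above 0 and 3 below. DTX2, a Deltex ubiquitin ligase, was at -0.63 with all 4 probe sets below 0, from -0.90 to -0.34. FBXW7, which marks the cleaved receptor for degradation, was at -1.34 in one probe set, with 84.0 against 212.3, and near the random probes on the control array in the other. DTX3L was at 0.47 from probe sets at -0.81 and 1.75, and NUMBL, a Numb-type inhibitor, at 0.15.

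**Figure D4:**
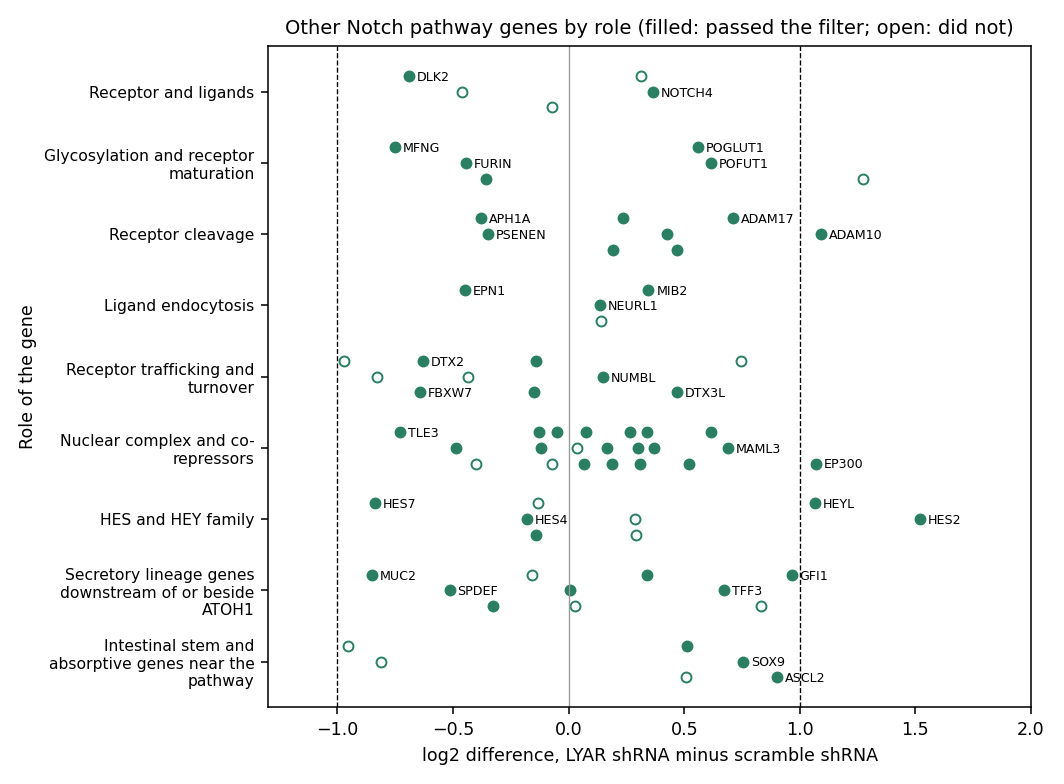
Log2 difference, LYAR shRNA minus scramble shRNA (x axis), of the 78 measured genes of the wider Notch list, in rows by role, filled where the gene passed the filter and open where it did not, with dashed lines at 2-fold and names on most of the genes described in the text. ADAM10, EP300, HES2 and HEYL are the 4 filled points beyond the upper dashed line, and 0 filled points lie beyond the lower one.

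In the nuclear complex 18 of 21 measured genes passed, 16 of them on both arrays, with 11 above 0 and 5 below. RBPJ itself, named after its value was seen, had 3 bright probe sets that all stood above 0. They read 1929, 1064 and 1654 on the knockdown array against 1206, 662 and 1187 on the control array, with differences of 0.68, 0.69 and 0.48 and a mean of 0.61. EP300, an acetyltransferase recruited by the activated complex, read 173.9 and 82.9, a difference of 1.07, and was the 1 gene of the 4 past 2-fold with both values above the random probes. The co-activator gene MAML3 was at 0.69, from 1 probe set at 106.7 against 66.3. It passed on the knockdown array alone, which fixed its sign. Of the co-repressor genes, TLE3, a Groucho-type partner of HES proteins, was at -0.73 with all 4 probe sets below 0, from -1.08 to -0.42.

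Of the other HES and HEY family genes, 5 of 8 passed, and the 3 that passed on both arrays were below 0. HES2 read 124.1 against 43.3 and HEYL 119.6 against 57.1, the control values being near the random probes, so that HES2 was at least 1.90-fold higher on the knockdown array and HEYL at least 1.83-fold. HES4, a close relative of HES1, read 547 and 621, a difference of -0.18, and HES7, known from the somite clock, was at -0.84 with 434 against 775. HES6, named after its value was seen, was at -0.14 and had no settled direction. Its probe sets, all above the random probes, gave 0.63, -0.24 and -0.82. Thus HES1, HES7 and, by little, HES4 were below 0 from values above the random probes. The higher values of HES2 and HEYL were bounds.

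Genes of the secretory lineage, which ATOH1 stands above, gave few values that could be read for direction. Of the 7 that passed, 4 passed on both arrays, with 2 above 0 and 2 below, and the signs of GFI1, TFF3 and MUC2 were fixed by passing on 1 array alone. GFI1, a repressor that acts after ATOH1 in secretory progenitors, was at least 1.47-fold higher on the knockdown array. Its probe sets with both values above the random probes gave 0.55 and 1.11, and 1 was near the random probes on the control array. TFF3, a goblet-cell peptide, was at least 1.18-fold higher. MUC2, the main goblet-cell mucin, lay the other way, at 93.2 against 168.2 and a difference of -0.85, and SPDEF, a goblet-cell transcription factor, was at -0.51. Among genes of intestinal stem and absorptive cells, ASCL2, a stem-cell transcription factor, read 3074 and 1644, a difference of 0.90, and SOX9, of crypt progenitors, was at 0.76 with probe sets from 0.66 to 0.83. Both are also known as Wnt-induced. VIL1, of absorptive cells and named after its value was seen, was at 0.51 with probe sets at 0.49 and 0.54. The 3 genes of this role that passed did so on both arrays and were above 0, beside 54.3% of all such genes. LGR5, OLFM4 and FABP1 were near the random probes on both arrays.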

How the data were processed

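Total RNA of 2 HCT15 samples was measured, 1 per group, on 1-colour Cy3 arrays, grouped by the shRNA in the labels. The authors deposited probe-set intensities on a linear scale, summarised by RMA per the submitters' processing notes with settings not given in the sources used here. Double-stranded cDNA was labelled, per the labels' protocols, so strand is not kept. Each of the 16 probe sets holds 3 probes, per the file headers, which give positions in hg18.

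Gene IDs named 42947 of 45033 probe sets. Symbols were updated with the RefSeq table of GRCh38.p14, which held 38916 of them, and promoters came from RefSeq in the same build. Log2 intensities were averaged over the probe sets of a gene, with no pseudocount. Calls were by size, at 2-fold, with no test. A value under 2 times the 5000 random probes (30.3 and 32.7) was a bound, computed per probe set, with the smallest given. The number of arrays limits the precision. The code was tested on simulated data (Python 3.11.15, pandas 2.3.3).

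The members, the wider list and the filter were chosen with earlier results of these data known. Of the wider list, genes past 2-fold and the 2 most extreme passing genes in each direction per role were named, with other names said to be chosen after their values were seen. Of marker lists the 2 brightest were named, and others after their values were seen. A total of 8 alternatives were run. CIR1 and NEURL1B were not matched. A few genes of these lists are counted but not reported here by name.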

Additional observations from a re-analysis of the deposited data

How the results depend on the processing

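No paired analysis was possible because each group has 1 array. With 1 array per group no replicate could be left out. Counts of the 10 genes at least 2-fold higher or lower were 0 in the 8 alternatives, except that without the filter 1 was higher (ATOH1, near the random probes on both arrays). The wider list's count of 4 higher was 1 with the pseudocount of 32 (HES2) and 1 with the stricter filter on the mean of both arrays (EP300). The count over all passing genes moved too, from 642 of 12682 in the main setting. It was 404 of 12633 with the pseudocount and 453 of 11810 with the stricter filter. With the brightest probe set the wider list's count was 5, beside 702 of 12666 passing genes. Of these 5, EP300 alone was among the 4, the others being AAK1, DTX3L, GFI1 and POGLUT1. EP300 was also lost with the lowess trend removed, HES2 and HEYL were lost with the series value table, which added DTX3L, and LFNG was added without the filter. The count of 0 lower was 1 with the brightest probe set and 1 with the series value table (FBXW7), and 1 with median centring and 1 with the lowess trend removed (DTX3). Over all passing genes, 452 of 12682 were lower by as much in the main setting. That count was 508 of 12666 with the brightest probe set and 313 of 12605 with the series value table. With median centring it was 550 of 12689, and with the lowess trend removed 548 of 12684. NOTCH1, NOTCH3, DLL1 and HES1 stayed below 0, and JAG1, JAG2, NOTCH2 and NRARP above 0, in all settings that held them. Much of this was fixed in advance, since a change of filter cannot alter the value of a gene. For NOTCH1, NOTCH3, DLL1, JAG2 and NRARP, with 1 probe set each, a choice among probe sets cannot alter it either. The series value table also left these genes unchanged. The steady sign is therefore no replicate check. NOTCH2 keeps no settled direction, as its probe sets lay on both sides of 0. NOTCH3 ran from -0.74 to -0.66, HES1 from -0.46 to -0.38, JAG2 from 0.40 to 0.46 and DLL1 from -0.84 to -0.58. NOTCH2 ran from 0.03 to 0.72. HEY1 turned negative with the brightest probe set, centring and the pseudocount, reaching -0.61. The series value table held 8 of the 10 genes and 53 of the 78. Signal over background limits HEY1 and ATOH1.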

Other observations

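Some genes of the wider list gave one value per probe set that the gene mean hides, and all were picked after their values were seen. AAK1, a kinase that acts in receptor endocytosis, did not pass the filter, yet 1 of its 3 probe sets read 152.2 on the LYAR-shRNA array against 29.2, near the random probes, and was at least 2.33-fold higher, while the other 2 were near the random probes on both arrays. DTX3L read 223.9 against 66.7 in one probe set and 66.9 against 117.4 in the other, so its 2 probe sets lay on opposite sides of 0. The brightest GFI1 probe set read 177.4 against 82.4, a difference of 1.11 with both values above the random probes.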
